A study of Mus musculus with 6 samples.

Results

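The genes described here are 3 PIM kinase genes (Pim1, Pim2, Pim3), 3 D-type cyclin genes (Ccnd1, Ccnd2, Ccnd3), the genes of their catalytic partners (Cdk4, Cdk6) and 2 genes of CDK inhibitors (Cdkn1a, Cdkn1b). They were chosen by name, as cytokine-induced kinases and regulators of the G1 phase of the cell cycle, and all 10 had a row among the 14868 genes of the deposited table and passed the filter on low values. RNA was sequenced from naïve CD4+ T cells of wild-type (WT) mice and of Ikzf4-/- mice, which lack the gene of the Ikaros-family transcription factor Eos; the labels give a C57BL/6J background for both. All cultures were kept for 72 h under T helper 2 (Th2) conditions, with IL-4 at 10 ng/mL, an interferon-gamma blocking antibody (anti-Ifng) at 10 µg/mL, and stimulation by plate-bound anti-CD3 (5 µg/mL) and by anti-CD28 (2 µg/mL). There were 3 WT and 3 Ikzf4-/- libraries, and nothing in the labels says whether they came from separate mice or cultures, so p-values measure only the spread between these libraries. The labels do not describe how the Ikzf4 allele was made, whether the loss is limited to T cells, or the age of the mice.

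PIM kinases are serine/threonine kinases that are active as soon as they are made, so their activity is set largely by how much messenger RNA and protein a cell holds. In T cells they are induced by cytokines such as interleukin-2 and interleukin-4 through JAK kinases and STAT transcription factors, and they favour growth, translation and survival. D cyclins bind CDK4 or CDK6 and start the phosphorylation of the retinoblastoma protein, which releases E2F factors and lets a stimulated T cell enter S phase. The inhibitors p21, encoded by Cdkn1a, and p27, encoded by Cdkn1b, bind cyclin-CDK complexes; Cdkn1a is a classical target of p53, and p27 is abundant in resting T cells.

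Values are normalized read counts, that is, reads per gene divided by a size factor for the library. The smallest step between values in each library gave an estimated depth between 34701390 and 40604346 reads; the estimate is uncertain in Ikzf4-/- replicates 1 and 3, where the step is close to 1. WT libraries held 756, 499.6 and 483 normalized reads of Ikzf4 itself, against 25.2, 10.5 and 38.2 in Ikzf4-/- libraries, so each library matched its label. A gene was called when its adjusted p-value, from limma over 14864 genes, was under 0.05; 1.77% of genes were called, 1.2% lower and 0.572% higher in Ikzf4-/- cells. T cell markers were present at like levels, with a summed count over 7 genes of 95254 to 99060 in WT and 96614 to 101368 in Ikzf4-/- libraries. Of the markers of other cell types, Ms4a1, Pax5, Ncr1, Klrb1c, Lyz2, Csf1r, Itgam and Adgre1 had no row; the markers with a row summed to 51.1 to 90.4 for B cells (2 of 5 genes), 66.0 to 109 for myeloid cells (2 of 6), 20.2 to 67.4 for NK cells (1 of 3) and 232 to 423 for CD8 T cells (2 of 2) over the 6 libraries, with overlapping genotypes. In bulk RNA, fewer cells of a type and less RNA per cell cannot be told apart.

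All 3 PIM kinase genes fell in Ikzf4-/- cells, by about the same proportion. Pim2 was 32.8% lower, Pim1 31.2% lower and Pim3 26.8% lower, and no Ikzf4-/- library reached the lowest WT library for any of them. Of the 7 other genes only Ccnd3 was called, 17.4% lower, so 4 of 10 genes were called lower and 0 higher, against 1.2% of all genes tested called lower. Cdkn1a was 45.3% higher without passing the test; it was the 1 gene that was higher at an unadjusted p under 0.05, and the authors' deposited table called 0 of the 10 higher. Ccnd2, Cdk4 and Cdkn1b differed by under 6 percent.

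**Figure D1:**
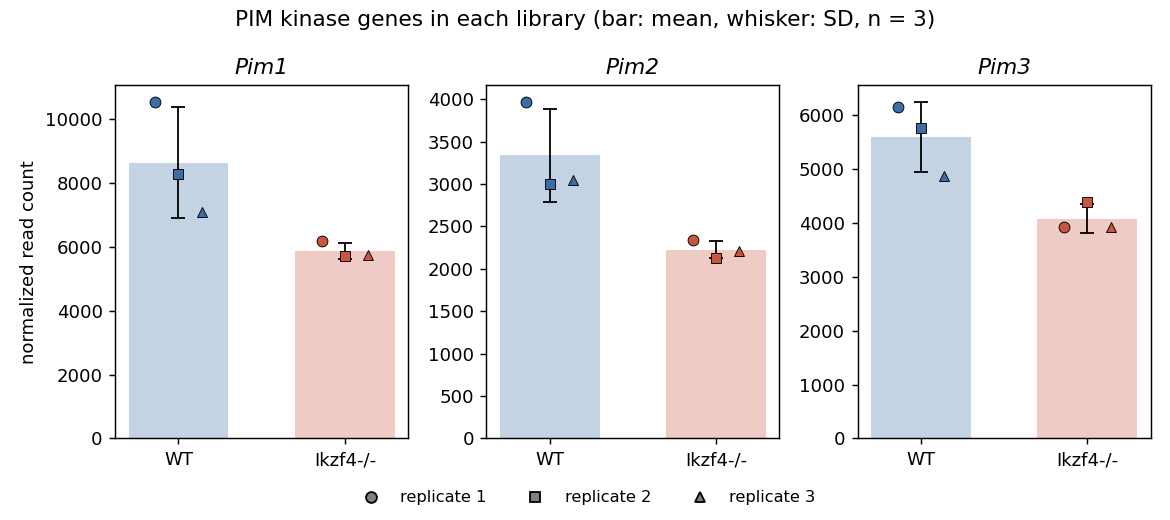
Normalized read counts of Pim1, Pim2 and Pim3 in each library. Bars are means and whiskers SD of 3 libraries, and marker shapes give the replicate number. Each Ikzf4-/- point lies below every WT point of its panel, and WT replicate 1 is the highest library in each.

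Pim1 (ENSMUSG00000024014, chromosome 17, 29490753 to 29496112 on the plus strand of GRCm38) encodes the founding member of the family. WT replicates 1, 2 and 3 held 10533, 8275 and 7090 normalized reads, and Ikzf4-/- replicates 1, 2 and 3 held 6164, 5706 and 5729. The WT libraries were spread widely and the Ikzf4-/- libraries lay close together, below all of them. The mean fell from 8632 ± 1749 to 5866 ± 258 (SD, n = 3 each). The fitted log2 difference was -0.54, SE 0.11, at a limma adjusted p of 0.0436. WT replicate 1 held 1.37 times the mean of the other WT libraries. Without it the difference was smaller, -0.39, and still called (0.0113). A Pim1 antisense gene, Gm26885, overlaps the model by 1173 bp at 35.6 to 102 normalized reads. The call was lost without WT replicate 2 (0.0872), Ikzf4-/- replicate 1 (0.0880), replicate 2 (0.133) or replicate 3 (0.150), with the same direction in each fit, and after a correction for GC content and length (-0.47, 0.0642).

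Pim2 (ENSMUSG00000031155, chromosome X, 7878262 to 7883432, plus strand) encodes the family member with the strongest link to lymphocyte survival and translation. WT libraries held 3970, 3002 and 3042 normalized reads, against 2334, 2130 and 2210 in Ikzf4-/- libraries. The latter 3 differed little among themselves, and WT replicate 1 again stood above the rest. Its mean fell from 3338 ± 548 to 2225 ± 103 (SD, n = 3 each), and the log2 difference was -0.57 (SE 0.10; adjusted p 0.0237 by limma). Of the PIM genes it had the lowest adjusted p, also in the authors' deposited table, where it was 2.86e-07 for Pim2, 5.79e-06 for Pim3 and 0.0261 for Pim1. The limma call was lost without Ikzf4-/- replicate 1 (0.0619), replicate 2 (0.0686) or replicate 3 (0.0933), and without WT replicate 1 the value was -0.44 (0.00343).

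Pim3 (ENSMUSG00000035828, chromosome 15, 88862186 to 88865726, plus strand) encodes the third kinase of the family, which like the others has no regulatory domain. WT libraries were at 6151, 5756 and 4870, and Ikzf4-/- libraries at 3920, 4395 and 3922. The gap between the genotypes was narrow, from 4395 to 4870. From WT to Ikzf4-/- cells the mean fell from 5592 ± 656 to 4079 ± 274 (SD, n = 3 each). On the log2 scale this was -0.45, with SE 0.08 and a limma adjusted p of 0.0291. Without WT replicate 2 the adjusted p was 0.0781, without Ikzf4-/- replicate 1 0.0858 and without Ikzf4-/- replicate 3 0.111, so the call was lost in these 3 fits, as it was after the GC content and length correction (-0.32, 0.0687).

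The proportions of the PIM genes to each other were compared within libraries. In each library, the log2 ratio of Pim1 to Pim2 was 1.36 ± 0.13 in WT and 1.40 ± 0.02 in Ikzf4-/- cells (SD, n = 3 each; exact permutation test, two-sided, p = 0.90), and that of Pim1 to Pim3 was 0.61 ± 0.14 and 0.53 ± 0.14 (exact permutation p = 0.60). Over the 4 ratios tested the adjusted values were 0.90 and 0.80, and 3 libraries against 3 cannot give a p below 0.10, so a difference in proportion was not detectable rather than shown to be absent. Counted per kilobase of exon, the summed PIM level went from 6066 ± 952 in WT to 4222 ± 96.1 in Ikzf4-/- cells (SD, n = 3 each). Pim1 gave 42.1% of that level in WT and 41.3% in Ikzf4-/- cells, Pim3 38.2% and 39.8%, and Pim2 19.7% and 18.9%.

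Since the PIM genes and Ccnd3 moved together, the 250 bases before each RefSeq start of these 4 genes are printed (RefSeq promoter table, GRCm38.p6, 5′ to 3′, all on the plus strand). A window was found for 8 of the 10 genes, with 11 windows in all. Both strands were searched for the STAT5-type motif TTCNNNGAA, the STAT6-type motif, which has 1 more base between TTC and GAA, the E-box CACGTG, the forkhead motif GTAAACA and the GC box GGGCGG, and matches are in capitals, where adjoining or overlapping matches run together.
Pim1, chr17:29490535-29490784: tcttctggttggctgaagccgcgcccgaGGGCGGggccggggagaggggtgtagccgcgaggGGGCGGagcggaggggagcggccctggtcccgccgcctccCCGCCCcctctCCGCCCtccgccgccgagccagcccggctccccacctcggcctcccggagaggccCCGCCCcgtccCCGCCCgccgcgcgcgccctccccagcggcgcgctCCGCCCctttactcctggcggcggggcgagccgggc
Pim1, chr17:29492835-29493084: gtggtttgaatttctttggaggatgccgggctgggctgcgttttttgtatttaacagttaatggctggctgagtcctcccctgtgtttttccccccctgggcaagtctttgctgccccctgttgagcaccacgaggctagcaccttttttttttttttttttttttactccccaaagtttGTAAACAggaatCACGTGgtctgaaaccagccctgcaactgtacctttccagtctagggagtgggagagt
Pim2, chrX:7878056-7878305: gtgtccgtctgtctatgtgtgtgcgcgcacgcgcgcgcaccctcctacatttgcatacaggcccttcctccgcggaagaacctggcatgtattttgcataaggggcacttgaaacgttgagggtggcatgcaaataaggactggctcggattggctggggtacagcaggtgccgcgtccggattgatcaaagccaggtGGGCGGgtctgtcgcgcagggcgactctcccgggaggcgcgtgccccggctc
Pim3, chr15:88861944-88862193: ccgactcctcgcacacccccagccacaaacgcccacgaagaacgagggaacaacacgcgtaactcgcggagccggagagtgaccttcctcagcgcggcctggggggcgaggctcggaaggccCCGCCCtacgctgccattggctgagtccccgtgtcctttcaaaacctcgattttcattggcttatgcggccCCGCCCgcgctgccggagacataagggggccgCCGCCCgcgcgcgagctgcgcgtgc
Ccnd3, chr17:47504801-47505050: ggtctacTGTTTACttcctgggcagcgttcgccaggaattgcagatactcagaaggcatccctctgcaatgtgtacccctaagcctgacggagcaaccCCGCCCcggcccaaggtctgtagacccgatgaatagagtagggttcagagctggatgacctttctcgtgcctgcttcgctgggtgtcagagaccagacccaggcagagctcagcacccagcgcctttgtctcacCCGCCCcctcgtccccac
Ccnd3, chr17:47593217-47593466: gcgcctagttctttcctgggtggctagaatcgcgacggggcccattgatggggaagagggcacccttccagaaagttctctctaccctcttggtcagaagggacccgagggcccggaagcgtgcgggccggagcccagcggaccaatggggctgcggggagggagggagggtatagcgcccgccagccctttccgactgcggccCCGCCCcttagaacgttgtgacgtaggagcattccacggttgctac

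The first Pim1 window held 7 GC boxes and the second 0, Pim3 held 3, Pim2 held 1, and the Ccnd3 windows held 2 and 1. Among the genes not called, Cdk4 held 1, Cdkn1b 1, Cdk6 0 and the Cdkn1a windows 0 and 2. Of all 32851 windows of this length, 32.7% held at least 1. The first Pim1 window was also rich in G and C, at 82.4% against a median of 52.4% over all windows. At the second Pim1 start the window had a forkhead match 70 bases and an E-box 58 bases before the start; 3.17% and 6.02% of all windows held these motifs. The upstream Ccnd3 window had a forkhead match 243 bases before its start. Neither STAT motif was found in any of the 11 windows. Of all windows, 7.02% held TTCNNNGAA and 5.85% held the STAT6-type motif, so 11 windows are too few to show a lack. Cdk4, which was not called, had 4 E-boxes in its window, and Cdk6, also not called, had 1, 220 bases before its start. A match is only a match of letters, and a missing match says only that these letters are not in the window.

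Among the D cyclins, Ccnd3 fell, Ccnd2 was not distinguishable from WT and Ccnd1 was close to the detection limit. Ccnd3 (ENSMUSG00000034165, chromosome 17, 47505051 to 47599691, plus strand) encodes cyclin D3, which is needed for the expansion of developing lymphocytes. WT libraries were at 9229, 8249 and 8886, and all Ikzf4-/- libraries were below them, at 7093, 7178 and 7480. The mean fell from 8788 ± 497 to 7250 ± 204 (SD, n = 3 each), or -0.28 on the log2 scale (SE 0.05), with an adjusted p of 0.0303 from limma and 0.000261 in the authors' deposited table. The change was small beside those of the PIM genes but its spread was small too. It was called without each WT library in turn and lost its call without Ikzf4-/- replicate 1 (0.0903), replicate 2 (0.0942) or replicate 3 (0.0883). After a correction for GC content and length the difference was -0.18 and not called (0.124). The gene model overlaps Bysl on the other strand by 361 bp, and the use of strand in counting is not given in the sources used here, so reads from the overlap cannot be told apart.

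Ccnd2 (ENSMUSG00000000184, chromosome 6, 127125162 to 127152193, minus strand) encodes cyclin D2, the D cyclin that T cells induce early after stimulation. WT libraries held 42498, 42162 and 40993 normalized reads and Ikzf4-/- libraries 38646, 39562 and 42480, so the genotypes overlapped. The log2 fold change was -0.06 with a 95% interval from -0.16 to 0.05 (limma adjusted p = 0.560). The Ccnd3 to Ccnd2 log2 ratio was -2.20, -2.35 and -2.21 in WT and -2.45, -2.46 and -2.51 in Ikzf4-/- libraries. These ratios did not overlap, and the exact permutation test gave 0.10, the smallest p that 3 against 3 allows (0.20 adjusted over the 4 ratios). Ccnd1 (ENSMUSG00000070348, chromosome 7, 144929931 to 144939925, minus strand), the main D cyclin of many adherent cells, was at 11.7, 9.88 and 19.4 in WT and at 5.04, 15.7 and 7.03 in Ikzf4-/- libraries. It shares 1771 bp with LTO1 on the other strand, a gene at 488 to 681 normalized reads. At this depth its difference could not be resolved, with a 95% interval of the log2 fold change from -1.71 to 0.51. Of the summed D cyclin level per kilobase of exon, Ccnd2 gave 81.6% ± 0.894 in WT and 83.8% ± 0.292 in Ikzf4-/- cells (SD, n = 3 each), Ccnd3 18.4% and 16.2%, and Ccnd1 under 0.1 percent. These shares rest on the union of exons, where the WT means were 4452 for Ccnd2 and 1001 for Ccnd3. With the longest transcript they were 6617 and 2278, which gives Ccnd3 a larger share.

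**Figure D2:**
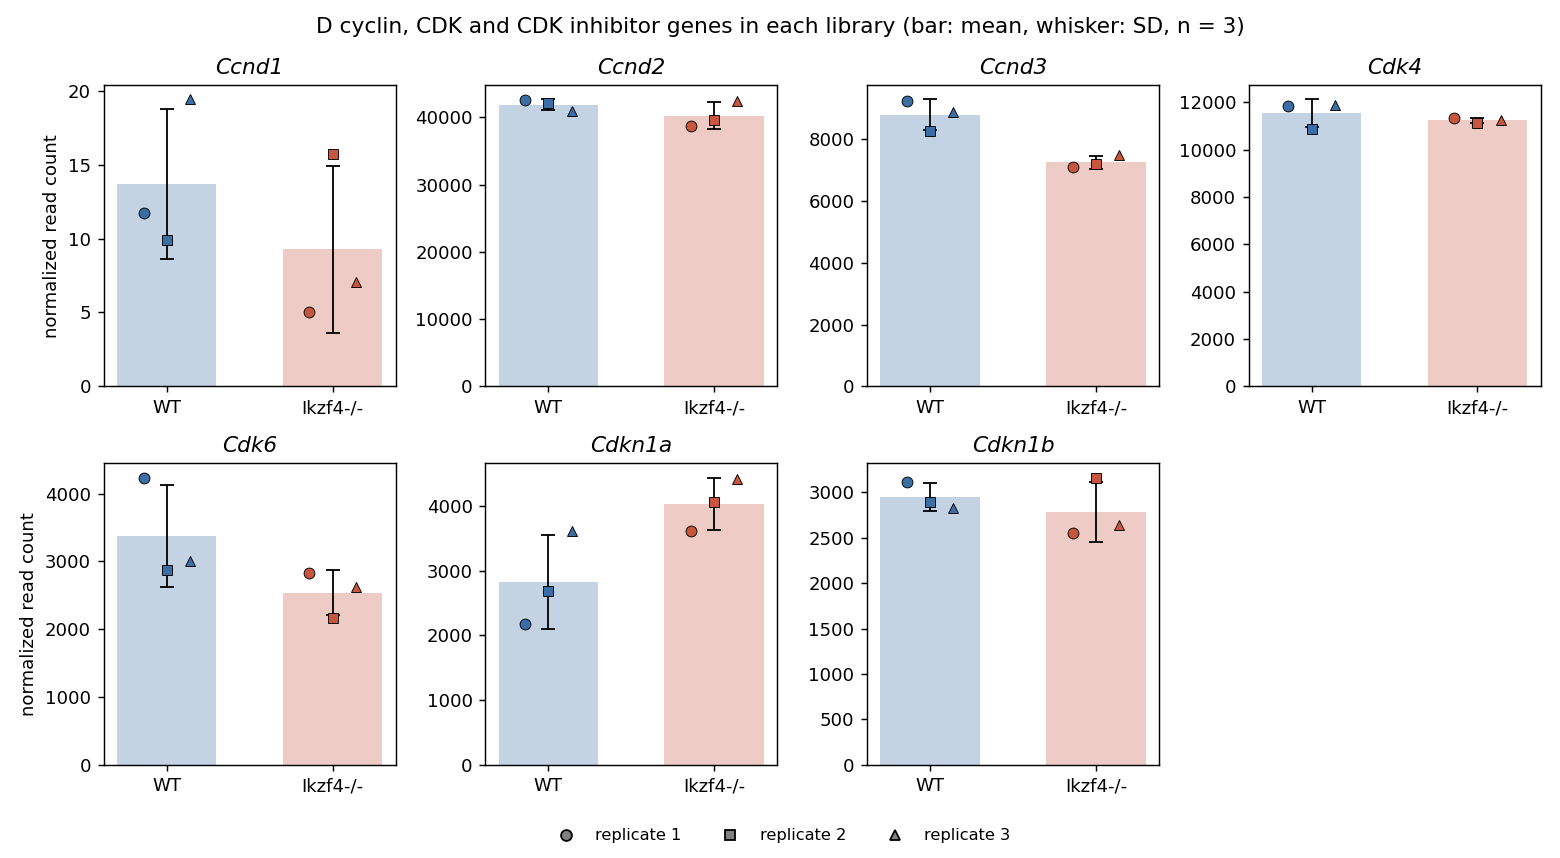
Normalized read counts of the D cyclin, CDK and CDK inhibitor genes in each library. Bars are means and whiskers SD of 3 libraries, and each panel has its own axis from 0. Ccnd3 and Cdk6 lie lower and Cdkn1a higher in each Ikzf4-/- library than in any WT library, and for Cdkn1a by a margin of only 3608 to 3611.

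The genes of the catalytic partners were not called. Cdk4 (ENSMUSG00000006728, chromosome 10, 127063534 to 127067920, plus strand) was at 11854, 10846 and 11887 in WT and at 11327, 11117 and 11267 in Ikzf4-/- libraries, within the WT range. Its log2 fold change was -0.04, with a 95% interval from -0.14 to 0.07 (limma adjusted p = 0.749). Cdk4 lies 1562923 bp from Ikzf4 on the same chromosome. Its model overlaps Tspan31 on the other strand by 641 bp.

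Cdk6 (ENSMUSG00000040274, chromosome 5, 3341485 to 3531008, plus strand) was at 4237, 2878 and 3005 in WT and at 2827, 2172 and 2618 in Ikzf4-/- libraries. WT replicate 1 was far above the other WT libraries, which lay just above the highest Ikzf4-/- library. The log2 fold change was -0.40 (SE 0.14, limma adjusted p = 0.156; 0.306 in the authors' deposited table), and without WT replicate 1 it was -0.22 (0.289). Per kilobase of exon Cdk6 gave 6.34% of the combined CDK level in WT and 4.98% in Ikzf4-/- cells, the rest being Cdk4. An antisense gene, Gm17590, overlaps 8013 bp of the Cdk6 model and was itself lower in Ikzf4-/- cells, so reads of the overlap cannot be told apart.

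Cdkn1a and Cdkn1b, which encode inhibitors of the same complexes, were not called. Cdkn1a (ENSMUSG00000023067, chromosome 17, 29090976 to 29100727, plus strand) was at 2180, 2686 and 3608 in WT and at 3611, 4063 and 4419 in Ikzf4-/- libraries. WT replicate 3 nearly equalled Ikzf4-/- replicate 1, and WT replicate 1 was the lowest library. The log2 fold change was 0.54 (SE 0.15), with an adjusted p of 0.0862 in limma and 0.190 in the authors' deposited table. Without WT replicate 3 the gene was called, at 0.73 (limma adjusted p = 0.0102), as it was with array weights (0.52, 0.0380), and leaving out each library in turn gave 0.37 to 0.73. Cdkn1a lies 390025 bp from Pim1 on chromosome 17, and the intervals of their log2 fold changes lay on opposite sides of 0, from 0.22 to 0.86 for Cdkn1a and from -0.78 to -0.29 for Pim1.

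Cdkn1b (ENSMUSG00000003031, chromosome 6, 134920401 to 134925513, plus strand) was at 3119, 2898 and 2826 in WT and at 2548, 3164 and 2638 in Ikzf4-/- libraries, and Ikzf4-/- replicate 2 was the highest of all 6. The log2 fold change was -0.09, with a 95% interval from -0.26 to 0.09 (limma adjusted p = 0.610). The log2 ratio of Cdkn1a to Cdkn1b was -0.52, -0.11 and 0.35 in WT and 0.50, 0.36 and 0.74 in Ikzf4-/- libraries. The genotypes did not overlap, with WT replicate 3 and Ikzf4-/- replicate 2 almost equal, and the exact permutation p was 0.10 (0.20 adjusted over the 4 ratios), again the smallest possible.

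**Figure D3:**
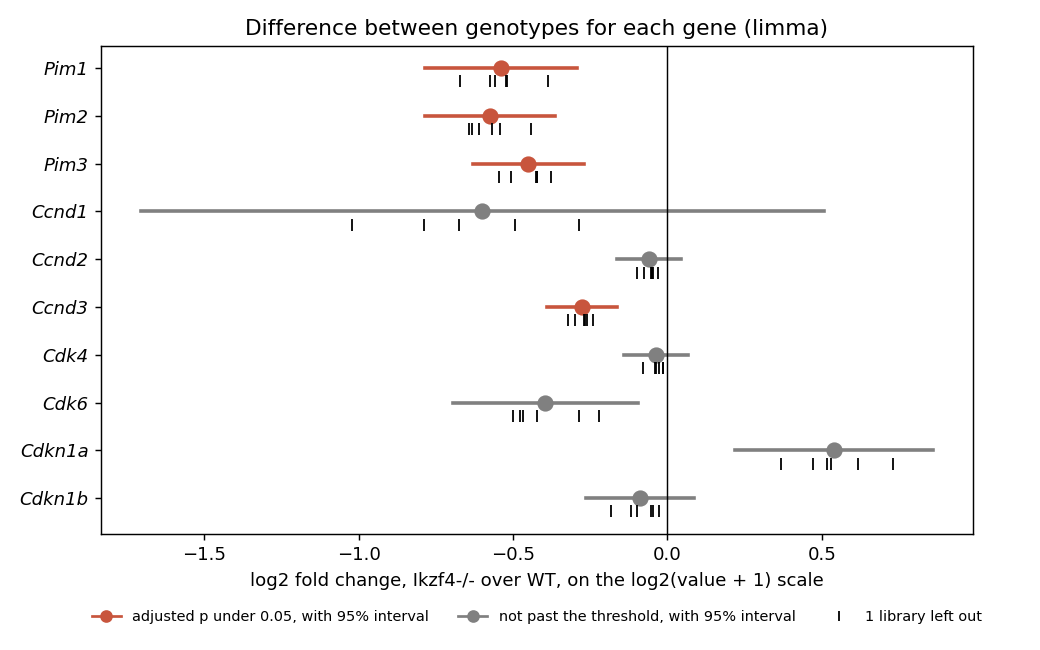
Log2 fold changes of the 10 genes (Ikzf4-/- over WT) from limma with 95% intervals. Red marks an adjusted p under 0.05, and black ticks show the fits that each left out 1 library. The 3 PIM genes and Ccnd3 are red and lie between -0.57 and -0.28, Cdkn1a alone lies above 0, and the interval of Ccnd1 is the widest.

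Counting direction only, 9 of the 10 genes had a log2 fold change below 0, with a median of -0.34, against 48.7% of all genes and a median of 0.00 (0.0048). The groups did not overlap for 5 genes that were lower (Pim1, Pim2, Pim3, Ccnd3, Cdk6) and 1 that was higher (Cdkn1a), where 12.2% and 11.0% of all genes tested did so (23.1% in either direction). The authors' deposited table called the same 4 genes as limma and gave no adjusted p for Ccnd1. Of the genes with an adjusted p there, 6.34% were called, 3.89% lower. Libraries within the WT group differed in the same genes: in WT replicate 1 Cdk6 was 1.44, Pim2 1.31, Pim3 1.16 and Ccnd3 1.08 times the mean of the other WT libraries, and Cdkn1a was 0.693 times that mean. The part of this library in the results was tested only by leaving it out, and the 4 calls held without it.

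Per kilobase of exon, the order of WT levels was Ccnd2 (4452 ± 83.9), Cdk4 (3548 ± 182), Pim1 (2568 ± 520), Pim3 (2304 ± 270), Pim2 (1194 ± 196), Ccnd3 (1001 ± 56.6), Cdkn1a (795 ± 204), Cdkn1b (648 ± 33.6), Cdk6 (241 ± 53.7) and Ccnd1 (2.90 ± 1.07; SD, n = 3 throughout). Pim1 and Pim3, Pim2 and Ccnd3, and Cdkn1a and Cdkn1b did not differ beyond their spread. In Ikzf4-/- cells Cdkn1a (1135 ± 114) stood above Ccnd3 (826 ± 23.2) and Pim2 (796 ± 36.8). In WT its mean was below both, within the spread, and in WT replicate 3 Cdkn1a (1016) was already level with Ccnd3 (1013). When the longest transcript replaced the union of exons, Ccnd3 (2278) passed Pim2 (1632) in WT and the other WT positions were kept. In Ikzf4-/- cells Cdkn1a (1938 ± 195) and Ccnd3 (1879 ± 52.8) then did not differ beyond their spread. The place of Cdkn1a above Ccnd3 therefore depended on the length used, while Pim2 (1088 ± 50.2) stayed below Cdkn1a.

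**Figure D4:**
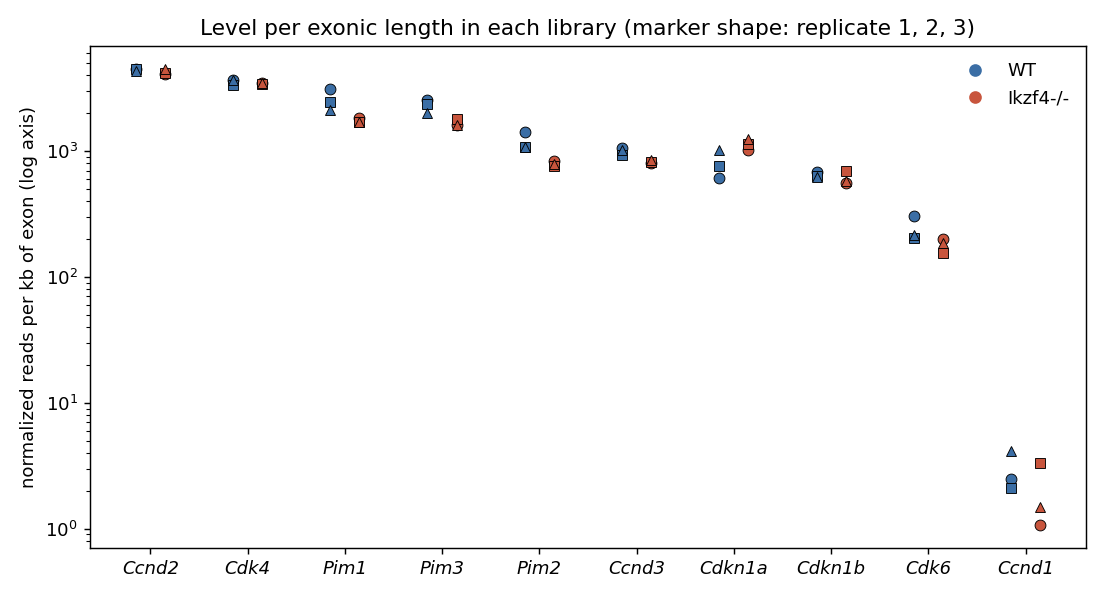
Normalized reads per kilobase of exon (union of annotated exons) for each gene and library, on a log axis, ordered by the WT mean. Ccnd2 and Cdk4 are the highest, Ccnd1 is near 1 to 4, and Cdkn1a lies above Pim2 and Ccnd3 in the Ikzf4-/- libraries.

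The lists of related genes give the setting. The cytokine list of 20 genes holds 16 receptor, JAK and STAT genes, whose pathway induces PIM and D cyclin genes, and 4 SOCS-family feedback inhibitors, which the same pathway induces. Of the 20, 6 were called lower and 0 higher, 3 of them in each class, against 1.2% of all genes tested called lower. The median log2 fold change over the list was -0.13. Il2rb, a signalling chain of the interleukin-2 receptor, fell from 18487 ± 772 to 14334 ± 669 (SD, n = 3 each; -0.37 on the log2 scale; limma adjusted p = 0.0129) and was called in all 6 fits that left out 1 library. Il4ra, the receptor chain for interleukin-4, fell by 0.80 on the log2 scale (limma adjusted p = 0.0476; 0.0600 in the authors' deposited table), with WT replicate 1 at 19694 against 12253 and 11002. Stat3 fell by 0.31 (limma adjusted p = 0.0436). The STAT-induced feedback inhibitors Socs1, Socs2 and Socs3 fell as well, with log2 differences of -0.37, -0.72 and -1.32 (limma adjusted p = 0.0375, 0.0331 and 0.0258). Il2ra, the high-affinity receptor chain, had the largest difference of the genes not called (-0.47, 0.0869). Stat5a, Stat5b and Stat6, the factors themselves, were at 0.08, -0.09 and 0.09 with limma adjusted p from 0.397 to 0.612. Cish, another STAT5 target, was at -0.09. Stat5a, Stat5b, Stat6 and Cish were chosen after their values were seen. The count of 6 was 1 without WT replicate 2, Ikzf4-/- replicate 1 or Ikzf4-/- replicate 2, it was 2 without Ikzf4-/- replicate 3, and it was 3 after correction for GC content and length, a setting chosen with results known.

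Of 20 substrates and partners of PIM kinases, 2 were called lower and 0 higher (median -0.07), against 1.2% of all genes tested called lower. Eif4ebp1, the translation repressor that PIM and mTOR pathways keep phosphorylated, fell from 1755 ± 226 to 1281 ± 106 (SD, n = 3 each; -0.45 on the log2 scale; limma adjusted p = 0.0436). Myc, a growth regulator whose protein PIM kinases stabilize, fell from 5811 ± 888 to 4304 ± 304 (log2 fold change -0.42, limma adjusted p = 0.0490). Cxcr4 had the largest difference of those not called (-0.93, 0.0634). Both calls were lost without WT replicate 2 (0.0615 each), and Myc also with equal library totals (0.0518), a pseudocount of 0.1 (0.0515) or the GC content and length correction (0.0829); with any 1 of the Ikzf4-/- libraries left out neither was called, with adjusted p from 0.0578 to 0.161.

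In the other cell cycle lists 3 genes were called, all lower, where 1.2% of all genes tested were called lower. Of 15 G1/S cyclins, CDKs and activators, only the phosphatase gene Cdc25b was called (log2 fold change -0.24, limma adjusted p = 0.0258), Cdc25c had the largest difference of the rest (0.15, 0.331), and the median was 0.01. Ccne1 and Cdk2, which act after the D cyclins and were chosen after their values were seen, were at 0.08 and -0.11 (0.584 and 0.340). Of 6 further CDK inhibitor genes, Cdkn2d, which encodes the CDK4 and CDK6 inhibitor p19, fell from 3673 ± 295 to 2770 ± 156 (SD, n = 3 each; -0.41 on the log2 scale; limma adjusted p = 0.0237). The median of these 6 was -0.35, with 5 below 0. Cdkn2b, with means of 24.96 in WT and 11.9 in Ikzf4-/- cells, had the largest difference of those not called (-0.91). Of 13 RB and E2F genes only E2f2 was called (-0.25, 0.0343; 0.0507 with equal library totals), and E2f3 was at 0.19 (0.172). Of 22 proliferation markers 0 were called by limma and 0 in the authors' deposited table, and 4 had an unadjusted p under 0.05, as did 18.1% of all genes tested. The median was -0.06, with 17 of them below 0, or 14 with equal library totals. The groups did not overlap for 7 markers that were lower and 1 that was higher, against 12.2% and 11.0% of all genes tested. The summed count was 293966 to 302343 in WT and 287132 to 293320 in Ikzf4-/- libraries. Aurkb had the largest difference (-0.17, 0.114). Cdc25b and E2f2 were called in 2 and Cdkn2d in 3 of the 6 fits that left out 1 library. Their limma adjusted p went up to 0.0933 for Cdc25b and Cdkn2d and 0.123 for E2f2. Of these 3 only Cdkn2d was called without Ikzf4-/- replicate 2 (0.0362). After the GC content and length correction Cdc25b (0.0687) and E2f2 (0.172) lost their calls, and Cdkn2d kept its call (0.0378).

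The p53 target list, to which Cdkn1a is related but not a member here, had 19 of 19 tested genes above 0, with a median log2 fold change of 0.29 against 0.00 for all genes. Only Zmat3, a p53-induced RNA-binding protein gene, was called: it rose from 1287 ± 280 to 2037 ± 221 (SD, n = 3 each; 0.68 on the log2 scale; limma adjusted p = 0.0407). Its values were 987, 1334 and 1541 in WT and 1953, 1871 and 2288 in Ikzf4-/- libraries. Eda2r, a receptor gene of the same list, had the largest difference of those not called, with 10.6, 9.88 and 11.6 in WT and 34.3, 20.9 and 48.2 in Ikzf4-/- libraries (1.52, 0.0696). At an unadjusted p under 0.05 there were 13 of the 19, all higher, against 18.1% of all genes tested. The authors' deposited table called 5, against 6.34% of its genes with an adjusted p. The groups did not overlap for 9 of the 19, all higher, against 11.0% of all genes. The summed count was 30654 to 39017 in WT and 39888 to 45946 in Ikzf4-/- libraries, lowest in WT replicate 1. The number above 0 was 17 without WT replicate 3 and 18 or 19 without any other library. Called genes numbered 6 without WT replicate 3 and 2 without WT replicate 1, against 0 without WT replicate 2 or any 1 Ikzf4-/- library and 0 after the GC content and length correction.

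**Figure D5:**
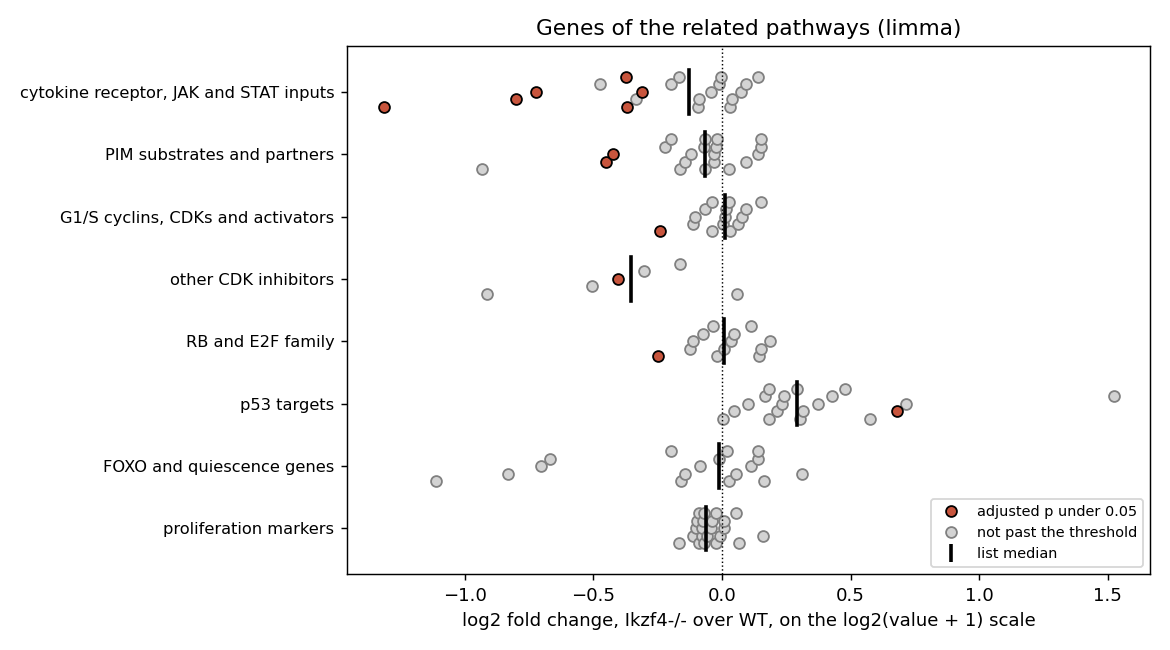
Log2 fold changes (Ikzf4-/- over WT) of the genes of 8 related lists, 1 point per gene, with the list median as a bar and called genes in red. Points are spread vertically only for legibility. Called genes of the cytokine list lie left of 0, and all points of the p53 list lie right of it.

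By Pearson correlation of log2(value + 1) over the 6 libraries, the genes most like Pim1 were Ppp2ca (0.998), Nkain1 (0.996) and Slain1 (0.996), and those most like Ccnd3 were Gpn2 (0.999), Ssr4 (0.995) and Cyth1 (0.991). Among 11599 genes compared, 279 exceeded 0.95 with Pim1 and 113 with Ccnd3, so such likeness over 6 libraries of 2 genotypes is common. Ppp2ca was at 16837, 14673 and 13010 in WT and at 11800, 11197 and 11466 in Ikzf4-/- libraries, with the same order of WT libraries as Pim1. Of these 6 genes it alone was called (log2 fold change -0.36, limma adjusted p = 0.0466).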

How the data were processed

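Total RNA of 6 libraries was sequenced, and 1 table was deposited. Per the submitters' processing notes, the tools included Trimmomatic 0.36, STAR 2.5.2b and DESeq2, with GRCm38 (mm10) as the genome; the counter, its use of strand and the annotation are not given in the sources used here. The deposited sample columns hold a signal that was read as normalized counts, since 100% of values above 0 were whole multiples, within 0.01, of a step per library. The deposited log2 fold changes and the deposited p-values and adjusted p-values are the authors' own comparison, Ikzf4-/- over WT.

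Genes with a mean of at least 10 were kept (14864 of 14868), values were transformed to log2(value + 1), and limma 3.58.1 (R 4.3.3) was fitted with genotype as the only term and a variance trend. Tests are two-sided, with Benjamini-Hochberg adjustment across the 14864 genes. Because 1 is added before the logarithm, changes of low genes are understated. The members, lists and tests were chosen with earlier results of these data known. All 10 members were named, as were, from each list, the called genes and the gene with the largest difference not called, and the 3 genes most like Pim1 and Ccnd3; some list genes are not reported here. Ratios between members used exact permutation tests (scipy 1.17.1). Positions and exon lengths came from GENCODE M21 (14831 identifiers matched). The fit was tested on simulated data. No count test was run, since in Ikzf4-/- replicates 1 and 3 a step close to 1 did not let the values be accepted as recovered reads. Alternatives covered scaling, filter, pseudocount, replicate block, array weights, single libraries, threshold, GC content and length, and the authors' deposited calls.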

Additional observations from a re-analysis of the deposited data

How the results depend on the processing

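Directions of the 10 genes held under every alternative that gave a value; 153 of their values kept call and direction, 20 lost the call and 4 gained it. Quantile, upper quartile or equal-total scaling, other filters and other pseudocounts kept all 4 calls. A minimum of 10 in every library and the fit without WT replicate 3 gave no value for Ccnd1, and the authors' deposited table gave no adjusted p for it. Equal library totals moved the split of called genes to 154 lower and 115 higher, against 178 and 85. Of all genes tested, 263 were called; array weights gave 482 (and added Cdkn1a, 0.0380), the authors' deposited calls 815, and a threshold of 0.01 16 genes, with 0 of the 10. Fits without 1 library gave 20 to 523 genes and 0 to 5 of the 10; without Ikzf4-/- replicate 1 or replicate 3 the count of the 10 was 0. After the GC content and length correction, chosen with results known, 179 genes and only 1 of the 10, Pim2 (0.0356), were called, with Pim1 at 0.0642, Pim3 at 0.0687 and Ccnd3 at 0.124. The replicate block gave 754 genes and 6 of the 10, adding Cdk6 (0.0147) and Cdkn1a (0.00598). Libraries with 1 number deviated from their group means with r of 0.145, 0.0122 and 0.142 across genes, and pairing by number was therefore not assumed. The difference in the Pim1 to Pim2 ratio, 0.03, ran from -0.037 (without WT replicate 3) to 0.084 (without WT replicate 2). That of Itgax, a myeloid marker near the filter, was -0.08 and ran from -0.39 (without WT replicate 1) to 0.06 without WT replicate 3 and 0.23 without Ikzf4-/- replicate 3. For other genes named, 511 values kept call and direction, 91 lost and 18 gained the call. For settings that moved a count beyond their own construction, the cause was not tested.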

Other observations

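Of 17 FOXO-regulated and quiescence genes, 0 were called by limma and 10 had an unadjusted p under 0.05 (18.1% of all genes tested did). The authors' deposited table called 5, against 6.34% of its genes with an adjusted p. The median of the 17 was -0.01 on the log2 scale, with 9 below and 8 above 0. Klf2, a factor that keeps T cells quiescent and circulating, had a difference of -0.70 (limma adjusted p = 0.0526), while Bach2, a repressor that holds T cells in an undifferentiated state, was at 0.31 (0.0648). Klf2 and Bach2 were chosen after their values were seen. Th2 markers were lower, with 4 of 7 called, against 1.2% of all genes tested called lower. The 4 were Il4 (-0.87, limma adjusted p = 0.0144), Il13 (-0.82, 0.0450), Il4ra and Ccr8 (-0.41, 0.0490), and Il5 at -1.24 (0.0529) was not called. The count of 4 was 0 without Ikzf4-/- replicate 3 and 2 with equal library totals. It was 1 without WT replicate 2, Ikzf4-/- replicate 1 or Ikzf4-/- replicate 2. Of T cell markers 0 of 7 were called by limma, 2 had an unadjusted p under 0.05 and 1 was called in the authors' deposited table, with Trac the largest at 0.19 (0.0902).

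Genes that overlap the members on the other strand were also looked at after their values were seen. Gm17590, antisense to Cdk6, was at 182, 118 and 173 in WT and at 77.7, 53.4 and 85.4 in Ikzf4-/- libraries (log2 fold change -1.12, limma adjusted p = 0.0437), a larger difference than that of Cdk6 itself; it was called in 0 of the 6 fits that left out 1 library. Gm26885, antisense to Pim1, was at 102, 52.1 and 64.1 in WT and at 65.6, 35.6 and 53.2 in Ikzf4-/- libraries (-0.48, 0.456), far below the counts of Pim1. Tspan31, beside Cdk4, was at -0.09 (0.359) and Bysl, beside Ccnd3, at 0.03 (0.769). Of 13 mitochondrially encoded genes 12 were above 0, with a median of 0.12. By limma 0 were called, and 5 had an unadjusted p under 0.05, against 18.1% of all genes tested. The authors' deposited table called 1 of the 13, against 6.34% of its genes with an adjusted p. The largest difference was that of mt-Atp8, at 0.49 (limma adjusted p = 0.490). The summed count of the 13 was 484391 to 531638 in WT and 525301 to 540905 in Ikzf4-/- libraries. Of the 7 tested markers of other cells 0 were called by limma, at an unadjusted p under 0.05 or in the authors' deposited table: Cd8a was at -0.79 (limma adjusted p = 0.488), Cd79a at 0.43 (0.615), Klrk1 at -0.46 (0.656) and Itgax at -0.08 (0.957).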
